A study of Mus musculus with 2 samples.

Results

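Blood endothelial nuclei of the chronically inflamed mouse colon were followed in 2 libraries of single-nucleus RNA sequencing, 1 from WT and 1 from HIF-1α KO mice. A nucleus was counted as a member when at least 3 of 10 genes of blood vessel endothelium were detected in it (Pecam1, Flt1, Ptprb, Kdr, Cdh5, Emcn, Egfl7, Adgrl4, Cyyr1 and Vwf), when these 10 genes held at least 0.3% of its unique molecular identifiers (UMIs), and when fewer than 2 of the 4 lymphatic genes Reln, Mmrn1, Flt4 and Prox1 were detected. UMIs count captured RNA molecules. Of 9586 nuclei that passed the filters, 84 were members, 61 in WT and 23 in HIF-1α KO. The members were selected on these 10 genes. The levels of the 10 genes in the members, against other nuclei or between the genotypes, are therefore a description and no result.

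Blood endothelium lines arteries, capillaries and veins. It senses vascular endothelial growth factor (VEGF) through the receptors encoded by Flt1 and Kdr, seals the vessel wall with VE-cadherin, the product of Cdh5, and lets leukocytes leave the blood through adhesion molecules such as P-selectin, the product of Selp, which is typical of veins. Lymphatic endothelium drains fluid and immune cells from the tissue, shares many of these genes, and is set apart by the transcription factor Prox1 and the VEGF receptor Flt4.

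Both groups had chronic colitis. Mice aged 8 to 12 weeks at the start drank 2% dextran sodium sulfate (DSS), which damages the colon epithelium, for 3 days, followed by 4 days of recovery, in 4 cycles, and the colon was taken on day 28. HIF-1α KO mice were Ncr1cre+ Hif-1α fl+/fl+, so that Cre under the promoter of Ncr1 deletes the loxP-flanked allele of the hypoxia-inducible transcription factor in NKp46+ innate lymphoid cells, and WT animals were littermates. The endothelium is therefore not the cell in which Hif1a was meant to be deleted. Frozen colon of 3 animals per genotype was pooled into 1 library, no untreated library was used here, and without a further library per genotype no difference could be checked in a replicate.

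In the members of WT 139016 UMIs were counted and in those of HIF-1α KO 89894. A member held 1207 to 4928 UMIs in WT with a median of 2007, and 1202 to 13173 in HIF-1α KO with a median of 3069. The other filtered nuclei had medians of 2059 and 4202 UMIs, so the HIF-1α KO library was the deeper of the pair. Levels are given as counts per 1000000 UMIs of the summed members (CPM). Every interval is an exact 95% interval (Poisson for levels, conditional for ratios, Clopper-Pearson for shares) and covers counting error only, not the differences between animals. Ratios are HIF-1α KO over WT on the log2 scale. The libraries shared 3 barcodes, of which 0 were members in either.

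The deletion could not be checked in the members. Ncr1, which encodes NKp46, had 0 UMIs in them in WT as in HIF-1α KO (a count of 0 allows up to 3), and 1 UMI in all other WT nuclei together. Hif1a (chr12) had 39 UMIs in the WT members and 28 in the HIF-1α KO members, or 281 (199 to 384) and 311 (207 to 450) CPM, with a log2 ratio of 0.15 (−0.60 to 0.89), and −0.34 without the deepest HIF-1α KO nucleus, which held 11 of the 28. Neither gene therefore set the labels of these nuclei apart.

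Markers of the nearest cell types were low in the members, while epithelial and smooth muscle markers were detected in many of them. The 4 lymphatic genes of the selection together held 20 UMIs in WT members and 7 in HIF-1α KO members, or 144 and 77.9 CPM. Lymphatic endothelial nuclei of the same libraries had 4779 and 3587 CPM. Those nuclei were chosen by at least 2 of the same 4 genes, at 0.1% or more of their UMIs. Members had to have fewer than 2, so the selection set this contrast and it is no result. Reln was at 0 in the members of both. Of 8 other lymphatic genes, the chemokine gene Ccl21a had 13 UMIs, all in 1 WT member, and Piezo2, an ion channel gene that other stroma also uses, had 17 and 3. Members with a single lymphatic gene detected numbered 8 of 61 and 5 of 23. Among markers of pericytes, the contractile cells that wrap capillaries, Pdgfrb had 2 and 1 UMIs, Rgs5 had 3 and 0, and Notch3 had 0 in both. Ebf1 of the same list was abundant, with 315 UMIs in 59 of 61 WT members and 172 in 19 of 23 HIF-1α KO members. Ebf1 encodes a transcription factor that B cells and adipocyte precursors also use. The 10 fibroblast markers summed to 22 and 13 UMIs, the 10 immune markers to 56 and 28, and markers of erythrocytes and platelets to 5 and 1. Larger sums were found for the 10 goblet markers (203 and 204 UMIs), the 10 absorptive enterocyte markers (210 and 208), the 10 smooth muscle markers (146 and 72) and, in WT, the 10 markers of enteric neurons and glia (57 and 10). At least 3 goblet markers were detected in 27 of 61 and 21 of 23 members, and without members that held at least 3 markers of another class 17 WT and 1 HIF-1α KO nuclei would remain.

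Many members lay near the threshold on the share of marker UMIs. In WT, 22 further nuclei had at least 3 of the 10 genes but a share of UMIs of at most 0.290%, and in HIF-1α KO 13 nuclei had at most 0.283%. The lowest shares among members were 0.330% and 0.317%, and the medians 0.540% and 0.559%, and 15 of 61 and 3 of 23 members were under 0.4%. At a threshold of 0.5% there were 33 and 13 members. A further 5 WT and 4 HIF-1α KO nuclei met the marker criteria and were left out for at least 2 lymphatic genes.

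Blood endothelial nuclei were the smaller share in HIF-1α KO. They made up 1.25% (0.957 to 1.60) of the 4884 filtered nuclei in WT and 0.489% (0.310 to 0.733) of the 4702 in HIF-1α KO, a 2.55-fold difference with a log2 ratio of −1.35 (−2.11 to −0.64). The intervals did not overlap. Lymphatic endothelial nuclei were lower by nearly the same ratio, with 67 and 26 nuclei or 1.37% and 0.553%, and smooth muscle nuclei made up 6.92% in WT and 2.83% in HIF-1α KO. Goblet nuclei made up 9.34% and 15.8%, absorptive enterocyte nuclei 7.02% and 13.3%, and immune nuclei 2.01% and 4.34%. Each class required several markers to be detected, which depends on depth, and the HIF-1α KO library was the deeper. Shares of classes other than blood endothelium were not recomputed after thinning.

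Within the stroma the share of blood endothelium was alike. Of the blood and lymphatic endothelial nuclei together, the members were 47.7% (38.8 to 56.7) in WT and 46.9% (32.5 to 61.7) in HIF-1α KO. Of all endothelial, fibroblast and smooth muscle nuclei they were 10.99% (8.51 to 13.9) and 10.1% (6.50 to 14.8). These are shares of 1 nuclei preparation each, and fewer endothelial cells in the tissue cannot be told apart from more nuclei of the other classes or from unequal recovery. With every nucleus thinned to 1000 UMIs before members were chosen, the shares were 1.13% and 0.560% and the log2 ratio −1.01.

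**Figure D1:**
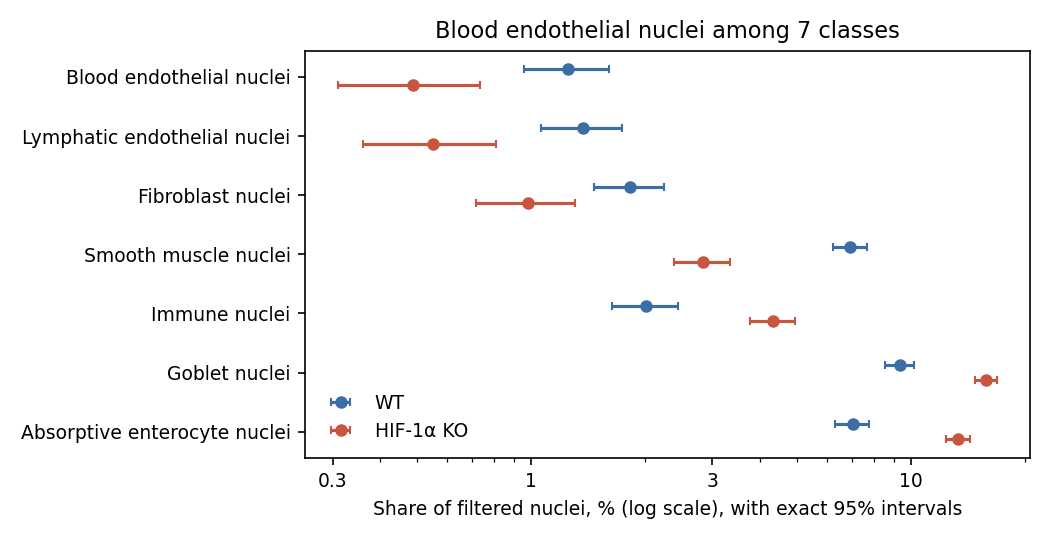
Share of filtered nuclei (%, log axis) of 7 classes in WT (blue) and HIF-1α KO (red), with exact 95% intervals for counting error. Blood endothelial, lymphatic endothelial, fibroblast and smooth muscle nuclei lie lower in HIF-1α KO, while immune, goblet and absorptive enterocyte nuclei lie higher.

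The 10 genes that the members were chosen by varied between nuclei. A WT member had 3 to 8 of them detected with a median of 5, and a HIF-1α KO member 3 to 10 with a median of 6. Flt1, the receptor VEGFR1 (chr5:147561604-147726011 of GRCm38), was detected in 51 of the 61 WT members and in 21 of the 23 HIF-1α KO members. Pecam1, an adhesion molecule at contacts between endothelial cells (chr11:106654217-106750628), was found in 49 and 20, and Ptprb, the phosphatase that acts on VE-cadherin and Tie2, in 49 and 19. Kdr, the receptor VEGFR2 (chr5:75932827-75978458), was found in 18 and 10, and the sialomucin gene Emcn in 15 and 10. No marker was therefore found in every member. Goblet nuclei, which should lack these genes, had a Flt1 UMI in 2.19% of nuclei in WT and in 0.81% in HIF-1α KO. Their median depths were 2690.5 and 4521 UMIs. Of the members 83.6% and 91.3% had a Flt1 UMI. Members were chosen partly on Flt1 and were left out of the goblet class, so this contrast is a description.

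**Figure D2:**
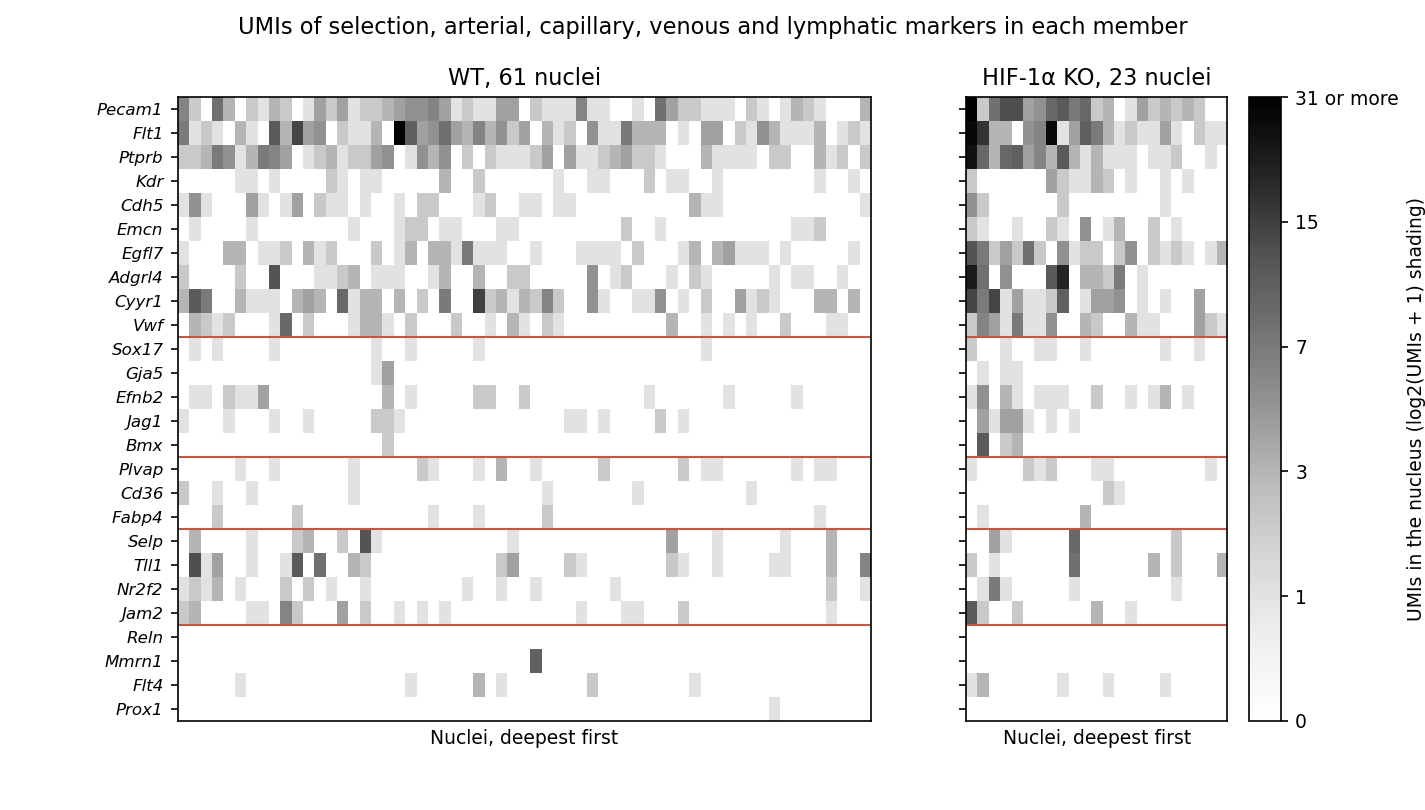
UMIs in each of the 61 WT and 23 HIF-1α KO members (columns, deepest nucleus first) for selection markers, arterial, capillary, venous and lymphatic genes (rows, from top to bottom between the red lines). Shading is log2(UMIs + 1) and saturates at 31 UMIs, and the 4 lymphatic genes at the bottom are nearly empty. Bmx has UMIs in 3 HIF-1α KO nuclei and also in a WT nucleus, with 2 UMIs there.

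Promoter windows of these genes were read to show what sequence stands before them, since they mark the same cells. The RefSeq table (GRCm38.p6) held windows from 250 bases before to 50 bases after the start site for 6 of the 10 genes, 8 windows in all. The letters CAGGAAG or CCGGAAG, which fit the ETS family to which the endothelial factors Erg and Fli1 belong, were searched on both strands. They stood in 4 of the 8 windows and in 3 of the 6 genes, Cyyr1, Egfl7 and Emcn, against 20.9% of 32851 promoter windows of that length (13.3% for CAGGAAG and 8.86% for CCGGAAG). All matches were CAGGAAG or its reverse complement. The match is a description and not a site of binding, and its absence from the windows of Adgrl4, Flt1 and Kdr says only that these letters are not there. The windows of 1 start site per matching gene are printed 5′ to 3′ on the strand of the gene, with the match in capitals. They lie at chr2:26583615-26583914 (plus strand, within the annotated span of Egfl7), chr3:137340828-137341127 (plus strand, Emcn) and chr16:85550324-85550623 (minus strand, within the span of Cyyr1).
Egfl7: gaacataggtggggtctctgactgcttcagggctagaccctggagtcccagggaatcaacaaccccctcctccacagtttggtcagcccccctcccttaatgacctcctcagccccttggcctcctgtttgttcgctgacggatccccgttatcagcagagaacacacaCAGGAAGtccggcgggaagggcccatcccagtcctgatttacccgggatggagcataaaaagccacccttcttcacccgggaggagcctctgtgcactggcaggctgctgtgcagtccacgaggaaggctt
Emcn: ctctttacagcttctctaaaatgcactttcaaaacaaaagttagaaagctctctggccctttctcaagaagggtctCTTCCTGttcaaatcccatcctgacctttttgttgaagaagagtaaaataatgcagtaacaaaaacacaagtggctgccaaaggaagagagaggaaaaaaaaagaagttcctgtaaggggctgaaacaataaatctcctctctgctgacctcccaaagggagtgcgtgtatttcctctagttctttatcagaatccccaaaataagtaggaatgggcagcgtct
Cyyr1: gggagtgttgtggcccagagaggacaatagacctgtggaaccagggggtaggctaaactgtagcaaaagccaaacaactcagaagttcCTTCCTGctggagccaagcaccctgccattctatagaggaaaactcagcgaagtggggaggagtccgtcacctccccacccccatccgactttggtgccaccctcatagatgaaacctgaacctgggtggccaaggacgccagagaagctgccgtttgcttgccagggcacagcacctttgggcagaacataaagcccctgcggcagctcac

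Between the genotypes 4 of the 10 markers lay closest in the summed members, Flt1, Kdr, Cyyr1 and Ptprb. Flt1 had 201 UMIs in WT and 128 in HIF-1α KO, or 1446 and 1424 CPM, with a log2 ratio of −0.02 (−0.35 to 0.30). Kdr had 23 and 18 UMIs, or 165 and 200 CPM. Cyyr1, which encodes a small cysteine and tyrosine rich membrane protein, had 132 and 74 UMIs and a log2 ratio of −0.21, and Ptprb 126 and 95 with 0.22. The intervals of these ratios included 0. The summed level of all 10 markers had a log2 ratio of 0.34 (0.20 to 0.49), and 0.19 without the deepest HIF-1α KO nucleus. Each member had to hold a minimum share of these 10 genes, so this ratio is a description and no result.

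Cdh5 was the lower of the markers and Adgrl4 the higher. Cdh5 (chr8:104101625-104144511) had 40 UMIs in 24 WT members and 10 in 4 HIF-1α KO members, or 288 (206 to 392) and 111 (53.3 to 205) CPM, with a log2 ratio of −1.37 (−2.54 to −0.35). Adgrl4, an adhesion G protein-coupled receptor of endothelium (chr3:151437887-151545086), had 53 UMIs in 25 WT members and 82 in 10 HIF-1α KO members, or 381 (286 to 499) and 912 (725 to 1132) CPM, with a log2 ratio of 1.26 (0.74 to 1.79). The intervals of both levels lay apart. With the gene in question left out of the selection, so that members were chosen by the other 9 markers, the log2 ratios were −1.12 (−2.31 to −0.06) for Cdh5 and 1.36 (0.82 to 1.91) for Adgrl4. In the same way Pecam1 had 1.02 (0.64 to 1.41), past 2-fold, and Ptprb 0.47 (0.02 to 0.92), with an interval that no longer included 0. Pecam1 had 129 and 152 UMIs and a log2 ratio of 0.87, of which 49 HIF-1α KO UMIs came from a single nucleus, and its ratio without that nucleus was 0.53. Egfl7, which encodes a factor that endothelium secretes, had 63 and 64 UMIs and a log2 ratio of 0.65, Vwf, the clotting factor stored in endothelium, 50 and 44 with 0.44, and Emcn 19 and 19 with 0.63.

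**Figure D3:**
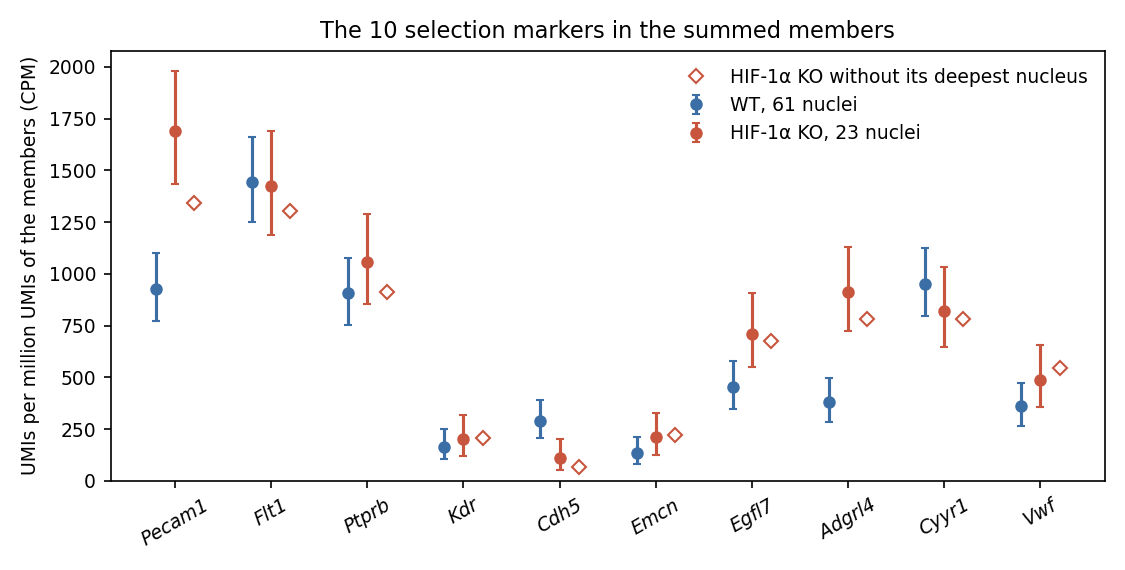
Level in CPM of the 10 selection markers in the summed WT members (blue) and HIF-1α KO members (red), with exact 95% Poisson intervals, and in HIF-1α KO without its deepest nucleus (open diamonds). The intervals lie apart for Pecam1, Cdh5 and Adgrl4, and without that nucleus Cdh5 is lower still and Pecam1 and Adgrl4 come closer to WT.

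A gene was counted as higher or lower when its CPM differed at least 2-fold and it had at least 30 UMIs in the members of both libraries together. Of 12646 genes with a UMI, 1791 had that many, and their median log2 ratio was 0.06. Of these 92 were higher in HIF-1α KO (5.14%) and 72 were lower (4.02%), and the intervals of the 2 levels lay apart for 52 and 22. When CPM was computed without mitochondrial genes and the 20 most abundant genes, 71 were higher and 85 lower, so the split between the directions depended on the scaling. Of the higher genes 41 were below their level in the other HIF-1α KO nuclei and 20 were at least 2-fold above it. Of the lower genes 24 were at least 2-fold above the other nuclei in WT. Each set was compared in the library where it is the higher, so these counts cannot be set against each other. A ratio of at least 2-fold in the same direction was also found in the other nuclei for 5 of the higher and 18 of the lower genes. None of these counts relative to the other nuclei was set against the share of all 1791 genes that meet the same limit.

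Genes concentrated in the members were looked at next. A total of 101 genes were at least 10-fold above the other nuclei in both libraries. Hoxb3, which is described with the transcription factors, met this limit in WT only. The median log2 ratio of the 101 genes was −0.06 within the members and −1.08 in the other nuclei. The other nuclei pool all remaining classes, and the shares of these classes differed between the libraries. The median of −1.08 is therefore not a ratio within a class of nuclei and cannot be set against that of the members. Of the 101 genes 5 were higher (Adgrl4, Cdh13, Pdgfd, St8sia6 and Stard9) and 6 lower (Cdh5, Col13a1, Entpd1, Hspa12b, Rasip1 and Tll1). Without the 10 selection markers the counts were 4 and 5 of 91. These shares are near those over all genes (5.14% and 4.02%). In all filtered nuclei together the 10 selection markers summed to 170 CPM in WT and 84.5 in HIF-1α KO, a log2 ratio of −1.01. Within the members they summed to 6014 and 7631 CPM. The selection set a minimum for this sum in each member, so these levels cannot be set against that ratio.

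**Figure D4:**
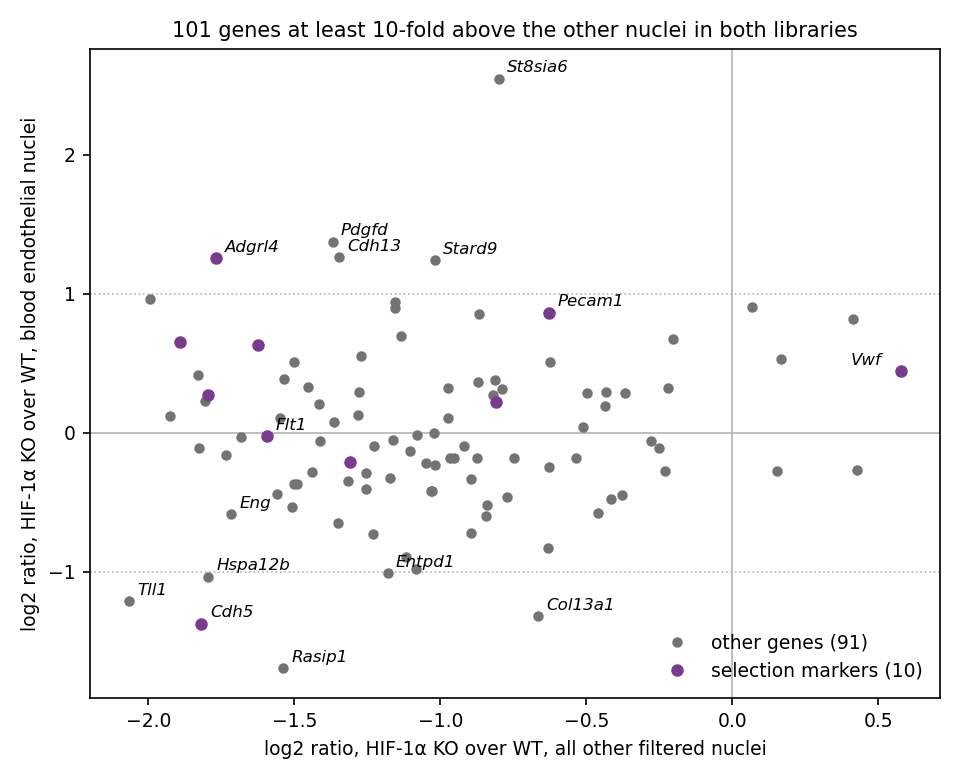
Log2 ratio, HIF-1α KO over WT, of the 101 genes that were at least 10-fold above the other nuclei in both libraries, in the other filtered nuclei (x axis) and in the members (y axis). Purple points are the 10 selection markers, and the dotted lines mark a 2-fold difference. Most points lie left of 0 on the x axis but near 0 on the y axis. The other nuclei pool classes whose shares differed between the libraries, so the axes are not like measures.

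The leading genes of the members included several that the selection did not use. Ranked among those that had 20 or more UMIs per library in the members, by the lower of their 2 ratios over the other nuclei, the first 15 were Flt1, Adgrl4, Zfp366, Ptprb, Cyyr1, Shank3, Eng, Vwf, Adamts9, Col15a1, Podxl, Tek, Fgd5, Zfp423 and Arap3. Zfp366, a zinc finger repressor, had 36 UMIs in WT and 30 in HIF-1α KO members and lay 72.3-fold and 171-fold above the other nuclei. Shank3, a scaffold protein, had 85 and 69 UMIs and lay 60.3-fold and 208-fold above them. Eng, the co-receptor endoglin, had 58 and 25, Adamts9, a secreted protease, 177 and 73, and Tek, the angiopoietin receptor Tie2, 37 and 26. These genes came from the same nuclei that were selected on vessel markers and are given as a description.

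Receptors for vessel growth factors included 1 gene that was higher. Of 12 VEGF, angiopoietin and related receptor genes 6 had at least 30 UMIs, 1 of them was higher and 0 were lower, and their median log2 ratio was −0.13 against 0.06 for all genes. Over all genes 5.14% were higher and 4.02% lower. Counts of 0 or 1 among the 6 genes, or among the 2 to 13 genes with at least 30 UMIs in the lists that follow, are too few to set against these shares. Nrp1, a co-receptor for VEGF and semaphorins (chr8:128358604-128503363), had 18 UMIs in 12 WT members and 33 in 9 HIF-1α KO members, or 129 (76.7 to 205) and 367 (253 to 515) CPM, a 2.84-fold difference whose log2 interval was 0.63 to 2.42. The levels lay apart, and the ratio in the other nuclei was 0.04. Goblet nuclei had a Nrp1 UMI in 7.46% and 9.99%, against 19.7% and 39.1% of the members. Calcrl, the receptor for adrenomedullin, had 118 and 43 UMIs and a log2 ratio of −0.83 (−1.37 to −0.31), short of 2-fold, and −1.12 without the deepest HIF-1α KO nucleus. Tek had a log2 ratio of 0.12, and Adgrf5, an adhesion G protein-coupled receptor, 64 and 31 UMIs with a log2 ratio of −0.42.

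Among 13 growth factor genes 2 reached 30 UMIs, of which 1 was higher and 0 were lower. Pdgfd, a platelet-derived growth factor (chr9:6168584-6378850), had 59 UMIs in 25 WT members and 99 in 17 HIF-1α KO members, or 424 (323 to 547) and 1101 (895 to 1341) CPM, with a log2 ratio of 1.38 (0.90 to 1.87). A single HIF-1α KO nucleus held 44 of the 99 UMIs. Vegfc, the ligand of Flt4 that drives lymphatic growth, had 23 and 28 UMIs and a log2 ratio of 0.91 (0.06 to 1.77), and 1.03 without the deepest nucleus. Edn1, which encodes endothelin, had 12 and 6 UMIs, and Pdgfb, which draws pericytes to vessels, 11 and 8.

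Of 16 junction genes 10 had at least 30 UMIs, with 0 higher and 0 lower and a median log2 ratio of −0.08. Magi1, a scaffold of junctions that epithelium also expresses, held 356 and 218 UMIs of the list. The tight junction adaptor Tjp1 had 44 and 40 UMIs, the catenin Ctnna1 97 and 48, and Jam2, an adhesion molecule of vessels, 30 and 19 with a log2 ratio of −0.03. The deepest HIF-1α KO nucleus held 11 of those 19 UMIs, and without it the ratio of Jam2 was −1.05 (−2.39 to 0.11), past 2-fold. Cdh5, whose product these proteins connect to, was on the list of selection markers and had the log2 ratio of −1.37 given above.

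Of 23 transcription factor genes of endothelium 13 had at least 30 UMIs, 0 were higher or lower and the median log2 ratio was 0.03. Fli1, an ETS factor, had 127 and 59 UMIs with a log2 ratio of −0.48 (−0.95 to −0.02), and Erg, another, 23 and 29 with 0.96 (0.12 to 1.82). Mef2c had 42 and 53 UMIs with 0.96 (0.35 to 1.58), of which 17 came from the deepest nucleus. Tcf4 held 314 and 235 UMIs, Ets1 81 and 49, and Foxo1, which restrains endothelial growth, 78 and 35 with −0.53. Of the Notch pathway 4 of 16 genes reached 30 UMIs, 0 differed at least 2-fold, and the coactivator gene Maml2 had 142 and 103 UMIs. Hoxb3, a homeobox gene outside these lists, was among the lowest of all genes with 32 UMIs in 21 WT members and 4 in 4 HIF-1α KO members, a log2 ratio of −2.37 (−4.33 to −0.88). It lay 15.3-fold and 7.8-fold above the other nuclei, where its log2 ratio was −1.39. Those nuclei pool several classes, and within smooth muscle nuclei Hoxb3 was at 91.5 CPM in WT and 117 in HIF-1α KO.

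Of the genes that answer to oxygen, Epas1, which encodes the endothelial subunit HIF-2α, had 62 UMIs in WT and 48 in HIF-1α KO members, or 446 and 534 CPM, with a log2 ratio of 0.26 (−0.32 to 0.83). Of 10 HIF subunit and oxygen sensor genes 3 had at least 30 UMIs and 0 differed 2-fold, and together they summed to 964 (808 to 1142) and 1257 (1036 to 1511) CPM, a log2 ratio of 0.38 (0.01 to 0.76) that was 0.18 without the deepest nucleus. None of 19 hypoxia-induced and glycolysis genes reached 30 UMIs, and together they summed to 784 (644 to 946) CPM in WT and 979 (785 to 1206) in HIF-1α KO, against 896 and 1218 in the other nuclei. The intervals of the summed hypoxia-induced and glycolysis genes overlapped.

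Bone morphogenetic protein (BMP) and transforming growth factor β receptors were present in both groups. Of 20 genes 7 had at least 30 UMIs, with 0 higher, 0 lower and a median log2 ratio of −0.12. Smad6, an inhibitor of BMP signals, had 29 and 11 UMIs with −0.77, and −1.19 without the deepest nucleus. Bmpr2, the type II BMP receptor, had 138 and 82 UMIs or 993 and 912 CPM. Tgfbr2 had 55 and 49 UMIs, and Smad7, an inhibitor of the pathway, 30 and 30. Eng had a log2 ratio of −0.59 (−1.32 to 0.11), and Id1, a target of BMP signals, 22 and 6 UMIs with −1.25 (−2.84 to 0.10), below the minimum of 30.

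Of 12 genes of the vascular basement membrane 8 had at least 30 UMIs, 0 differed 2-fold, and the summed level was 2834 (2561 to 3128) and 2870 (2530 to 3242) CPM. The collagen IV chain Col4a1 had 89 and 82 UMIs with a log2 ratio of 0.51 (0.06 to 0.96), of which 24 came from the deepest nucleus and without which the ratio was 0.24. Its partner Col4a2 had 74 and 46 with −0.06, and Col15a1 60 and 41 with 0.08. In the other nuclei the same 12 genes summed to 372 and 146 CPM. Of 13 integrin genes 5 had at least 30 UMIs and 1 was higher, the αv chain Itgav with 13 and 17 UMIs and a log2 ratio of 1.02 (−0.11 to 2.18), of which 8 UMIs came from the deepest nucleus and which was 0.33 without it.

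Of 15 genes linked to a shift from endothelium to mesenchyme, Zeb1 held most UMIs. The list summed to 1374 CPM in WT and 1257 in HIF-1α KO members, against 671 and 314 in the other nuclei. Snai1, Snai2, Twist1, Cdh2 and S100a4 had 0 UMIs in the members of both libraries, each of which allows up to 3. The collagen genes Col1a1, Col1a2 and Col3a1 had 2, 3 and 5 UMIs in WT and 1, 2 and 1 in HIF-1α KO. Zeb1, a transcription factor that endothelium also expresses, had 116 and 83 UMIs and a log2 ratio of 0.15, and Zeb2 29 and 11 with −0.77 (−1.92 to 0.27). These were the 2 genes that reached 30 UMIs, and 0 differed 2-fold.

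Of the antigen presentation genes 1 was lower. H2-K1, a class I heavy chain (chr17:33996017-34000347), had 78 UMIs in 39 WT members and 20 in 12 HIF-1α KO members, or 561 (444 to 700) and 222 (136 to 344) CPM, with a log2 ratio of −1.33 (−2.12 to −0.61). The most UMIs in a single WT nucleus were 17. In the other nuclei its level was 245 and 162 CPM with a log2 ratio of −0.60, and goblet nuclei had a UMI in 48.7% and 45.7%. Class I genes of the mouse are close copies, so reads may be shared between them. H2-D1 had 21 and 5 UMIs, below the minimum of 30, with a log2 ratio of −1.44, and B2m, the shared light chain, 24 and 13 with −0.26. Of the 21 antigen presentation and interferon genes 4 had at least 30 UMIs, 0 were higher and 1 was lower.

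Adhesion molecules for leukocytes were sparse. Of 15 genes 2 had at least 30 UMIs and 0 differed 2-fold. Selp had 34 UMIs in 12 WT members and 16 in 4 HIF-1α KO members, or 245 and 178 CPM. Cd34 had 21 and 7 UMIs with a log2 ratio of −0.96 (−2.43 to 0.33). Of 16 genes for nitric oxide, prostanoids and fatty acid handling 2 reached 30 UMIs and 0 differed 2-fold, and Nos3, the endothelial nitric oxide synthase, had 22 and 7 UMIs with a log2 ratio of −1.02 (−2.49 to 0.25). Abca1, a cholesterol exporter, had 103 and 44 with −0.60. The 12 immediate-early genes summed to 68 and 35 UMIs, and none reached 30.

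Arterial, capillary and venous genes were counted in each nucleus. A nucleus was counted for a list when at least 2 of its genes had a UMI, which gives a range of nuclei and not a cell type. Venous genes were found in this way in 19 of 61 WT members (31.1%, 19.9 to 44.3) and 7 of 23 HIF-1α KO members (30.4%, 13.2 to 52.9), against 0.658% and 2.83% of goblet nuclei. Capillary genes were found in 9 (14.8%) and 7 (30.4%), against 0 of 456 and 0 of 741 goblet nuclei, which allows shares of up to 0.658% and 0.405% when a count of 0 is taken to allow 3 nuclei. Arterial genes were found in 36 (59.0%) and 19 (82.6%), but also in 51.8% and 65.9% of goblet nuclei, mostly through Mecom, which had 540 and 397 UMIs in the members. Without Mecom the arterial numbers were 15 (24.6%) and 9 (39.1%), against 16.2% and 25.6% of goblet nuclei, so this list did not stand far above background. Thinned to 1000 UMIs the venous shares were 19.7% and 8.70% and the capillary shares 3.28% and 0%, with 2 of 61 and 0 of 23 nuclei, and by the same limit the 0 allows 3 nuclei.

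The lists, with Mecom left out, overlapped in some nuclei of both libraries. Of 61 WT members 10 were counted for arterial genes alone, 4 for capillary, 16 for venous, 6 for more than a single list and 25 for none. Of 23 HIF-1α KO members the numbers were 3, 4, 3, 6 and 7. The gap junction gene Gja5, found in arteries, had UMIs in 2 WT and 3 HIF-1α KO members. All 3 of these HIF-1α KO nuclei also held Bmx, a kinase gene of arterial endothelium, with 11, 2 and 3 UMIs, and also Efnb2 and Jag1, which encode a ligand of Eph receptors and a ligand of Notch. Of the 2 WT nuclei 1 also held all of these genes, with 4 UMIs of Gja5, 3 of Efnb2, 2 of Jag1 and 2 of Bmx, and the other held Jag1 but neither Bmx nor Efnb2. These genes were singled out after their values were seen.

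Tll1, a secreted metalloprotease of the venous list (chr8:64014931-64206271), was the lower gene of that list. It had 68 UMIs in 20 WT members and 19 in 6 HIF-1α KO members, or 489 (380 to 620) and 211 (127 to 330) CPM, with a log2 ratio of −1.21 (−2.03 to −0.46). In the other nuclei its log2 ratio was −2.07, and lymphatic endothelial nuclei expressed it as well, with 335 and 450 CPM. Of the 12 WT members with Selp 9 also had Tll1, and of the 4 HIF-1α KO members with Selp 3 had it, a pair of genes chosen after the values were seen. Of the 8 venous genes 3 had at least 30 UMIs, 0 were higher and 1 was lower.

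Among the genes with the lowest ratios in HIF-1α KO, Rasip1, which is needed for vessels to form a lumen, was the most concentrated in the members. It had 30 UMIs in 25 WT members and 6 in 6 HIF-1α KO members, with a log2 ratio of −1.69 (−3.25 to −0.41), and lay 35.0-fold and 31.4-fold above the other nuclei. Nav3, a cytoskeletal guidance gene, had 37 and 5 UMIs, Tspan7, a tetraspanin, 29 and 5, and Kitl, which encodes stem cell factor, 63 and 13. Nfatc3, a calcium-dependent transcription factor, was the lowest of all with 37 UMIs in 22 WT members and 4 in 3 HIF-1α KO members, a log2 ratio of −2.58 (−4.53 to −1.10). Tnip1, an inhibitor of NF-κB signals, had 27 and 4 UMIs and Flna, the actin linker filamin A, 26 and 4. For Nfatc3, Tnip1, Tspan7 and Kitl the log2 ratios in the other nuclei were −0.10, 0.62, 0.35 and −0.12, and for Rasip1, Flna and Nav3 they were −1.54, −1.59 and −0.97. D5Ertd579e and Gm19951 had log2 ratios of −1.98 and −1.94 in the members and −1.38 and −1.86 in the other nuclei. Both were lower in the members and in the pooled other nuclei, as were Rasip1 and Flna. That pool mixes classes whose shares differed between the libraries. Within smooth muscle nuclei of WT and HIF-1α KO, D5Ertd579e was at 670 and 275 CPM and Gm19951 at 944 and 252. Flna was nearly level there, at 1167 and 1134 CPM.

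Several of the highest ratios came from single HIF-1α KO nuclei. Of the 92 higher genes 14 had at least 50% of their HIF-1α KO UMIs in a single nucleus, and these were only 3 nuclei, with 5 genes in the deepest, 4 in the second deepest and 5 in the sixth. Gm33206, an unnamed transcript, had 0 UMIs in WT and 30 in HIF-1α KO and was at least 15.5-fold higher, counted against a floor of 3 UMIs over the WT members, but 28 of the 30 UMIs lay in the second deepest nucleus. The same nucleus held 22 of 34 UMIs of St8sia6, which encodes a sialyltransferase, 22 of 39 of Pcsk5, a protease that cleaves proproteins, and 11 of 16 of Bmx. Of the 72 lower genes 3 had at least 50% of their WT UMIs in a single nucleus.

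The deepest HIF-1α KO nucleus weighed most. It held 13173 UMIs, 14.7% of those of all HIF-1α KO members, against 7922 in the next deepest, and all 10 selection markers were detected in it with 161 UMIs. It also held 33 of the 41 UMIs of the replication and mitosis list in HIF-1α KO members, including 8 of 9 of Top2a, the topoisomerase of dividing cells, and 4 of 5 of Mki67. The 61 WT members together had 37 UMIs of that list. Goblet markers in it numbered 8 with 30 UMIs. No doublet caller was run here, and whether it was a single nucleus was not tested. Without it 99 genes were higher and 84 lower of 1672 with at least 30 UMIs, and 74 of the 92 and 53 of the 72 genes were among them. Stard9 had a log2 ratio of 1.24 with it and 0.86 without it, and Cdh5 one of −2.14 without it.

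Mitochondrial RNA and epithelial RNA differed between the members of the libraries. Mitochondrial genes summed to 151 UMIs (0.109%) in WT members and 492 (0.547%) in HIF-1α KO members, a log2 ratio of 2.33, against 1.01 in the other nuclei. A single HIF-1α KO nucleus, the sixth deepest, held 236 of the 492 UMIs, which was 4.43% of its own, and without it the level was 3027 CPM against 1086 in all WT members. mt-Co1, a subunit of cytochrome oxidase, had 41 and 178 UMIs, of which 85 lay in a single nucleus. Gm42418 and AY036118, which overlap ribosomal RNA genes, were 8.52% of the UMIs of WT members and 3.42% of those of HIF-1α KO members, as in the other nuclei (9.19% and 3.16%). Malat1, an RNA that stays in the nucleus, was 3.76% and 3.19%.

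The 10 goblet markers summed to 1460 CPM in WT members and 2269 in HIF-1α KO members, against 1364 and 2016 in smooth muscle nuclei, 1836 and 2400 in lymphatic endothelial nuclei and 20533 and 18478 in goblet nuclei. Muc2, the main mucin of the colon, was the most abundant of them with 68 and 60 UMIs. At least 3 absorptive enterocyte markers were detected in 26 and 20 members. Of the 92 higher genes 10 were mitochondrial or on these epithelial lists, and 1774 of the 1791 genes remained without such genes. On the goblet list 2 of the 4 genes with at least 30 UMIs were higher and on the absorptive list 2 of 7. Over all genes 5.14% were higher, and these lists are too small to set against that share. Other higher genes such as Clca4b, with 6 and 40 UMIs, and Rdh16, with 8 and 25, were below or near their level in the other nuclei (154 and 375 CPM for Clca4b, 265 and 444 for Rdh16). Both are genes of the colon epithelium. At least 3 smooth muscle markers were found in 9 and 4 members, with Dmd, Cald1 and Cacna1c leading the list, and Cacna1c was lower with 24 and 6 UMIs. The 10 markers of enteric neurons and glia summed to 57 and 10 UMIs, led by Kcnip4, which was lower with 28 and 7. The part of this RNA in the differences between the genotypes was not tested.

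Against lymphatic endothelium, blood endothelium differed in genes beyond those of the selection. There were 67 lymphatic endothelial nuclei with 185183 UMIs in WT and 26 with 73329 in HIF-1α KO. The 2 classes were chosen on their markers in the same nuclei, so the values are a description. Selp had 34 UMIs in blood and 0 in lymphatic nuclei of WT, at least 15.1-fold higher against a floor of 3 UMIs, and 16 and 1 in HIF-1α KO, a 13.1-fold ratio with a wide interval of its log2 (1.02 to 9.10). Jam2 had 30 and 0 UMIs in WT, at least 13.3-fold higher, and 19 and 0 in HIF-1α KO, at least 5.17-fold higher. Col15a1 had 60 and 1 UMIs in WT and 41 and 2 in HIF-1α KO. Epas1 was 8.26-fold higher in blood than in lymphatic endothelium in WT and 4.35-fold in HIF-1α KO, Vegfc 6.13-fold and 7.61-fold, and Col4a1 4.39-fold and 3.52-fold.

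Other genes differed by less than 2-fold between the vessel types in WT or leaned to the lymphatic side. Kdr, although a selection marker, had 165 CPM in blood and 243 in lymphatic nuclei of WT, and 200 and 177 in HIF-1α KO. Erg had 165 CPM in blood and 157 in lymphatic nuclei of WT, and 323 and 150 in HIF-1α KO, where it was 2.15-fold higher in blood with a log2 interval of 0.06 to 2.25. Nrp2, the co-receptor of VEGF-C, had 273 CPM in blood and 761 in lymphatic nuclei of WT, and 256 and 777 in HIF-1α KO. The laminin chain Lama4 was 3.98-fold and 4.83-fold higher in lymphatic nuclei, and the integrin chain Itga9 6.09-fold and 4.22-fold. Nr2f2, a transcription factor of veins and lymphatics, was 2.40-fold and 1.78-fold higher there, with an interval in HIF-1α KO that included equal levels.

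**Figure D5:**
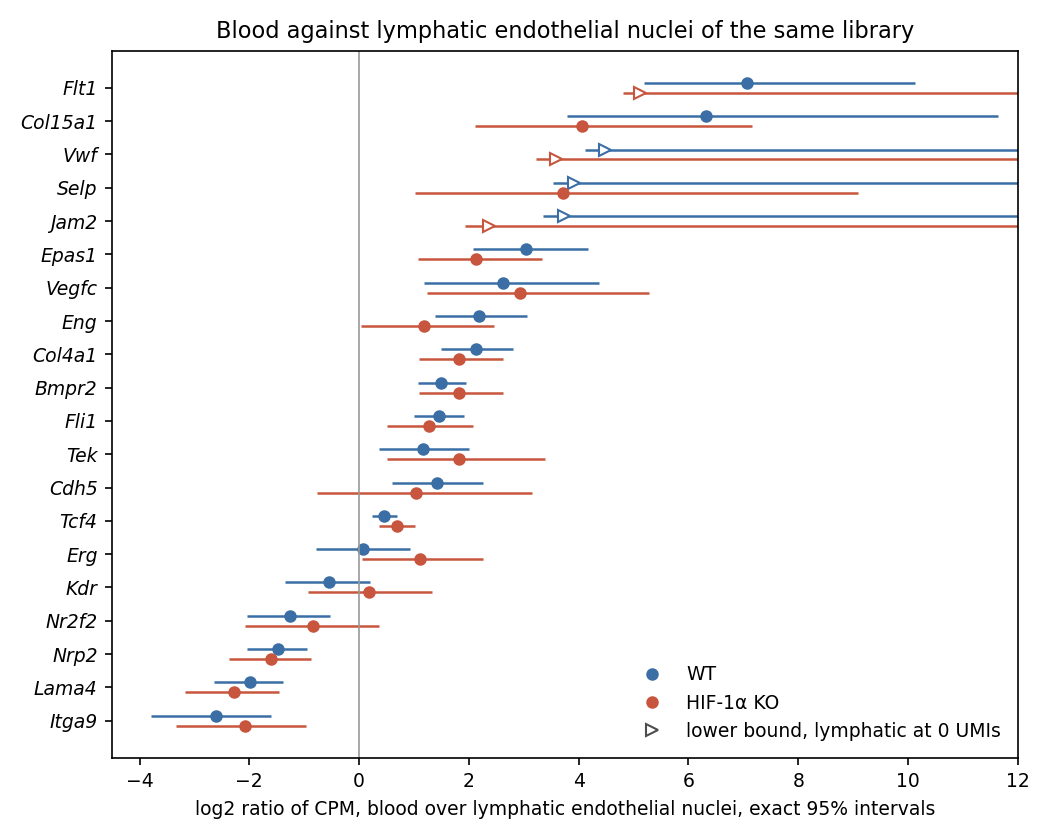
Log2 ratio of CPM, blood over lymphatic endothelial nuclei of the same library, for 20 genes in WT (blue) and HIF-1α KO (red), with exact 95% intervals. Open triangles are lower bounds against a floor of 3 UMIs where the lymphatic nuclei had none, genes from Flt1 to Tek lie right of 0, and Nrp2, Lama4 and Itga9 lie left of it in both libraries.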

How the data were processed

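Colon nuclei of 1 WT and 1 HIF-1α KO library, each from 3 pooled animals, were sequenced with 10x Chromium 3′ chemistry. The authors aligned the reads to mm10 with Cell Ranger 7.0.1 and deposited raw UMI counts per gene and nucleus, with replicates pooled before capture; whether intronic reads were counted is not given in the sources used here. The 9668 deposited barcodes (4896 and 4772) equal the nuclei the study describes, and its stated filter of 400 to 5000 genes and at most 10% mitochondrial UMIs left 9586.

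Counts of members were summed per library and scaled to CPM. With 1 library per genotype no test was made. Exact intervals at 95% cover counting error only, and 0 UMIs allow 3. Members and gene lists were chosen with earlier results of these data known. Named genes were the list genes, the 10 highest and 10 lowest ratios with intervals apart, and the 15 leading genes with at least 20 UMIs per library. Other classes were selected by marker lists, for example with at least 4 epithelial markers at 0.7% of UMIs. Identifiers were placed with GENCODE M21 (GRCm38, 32235 of 32285). No doublets were called. Alternatives included marker thresholds, thinning, scaling and count minimums. Python 3.11.15, numpy 2.4.6, pandas 2.3.3, scipy 1.17.1 and matplotlib 3.10.9 were used, and the calculations were tested on simulated data.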

Additional observations from a re-analysis of the deposited data

How the results depend on the processing

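The lower share of blood endothelial nuclei in HIF-1α KO kept its direction under all 9 alternatives, and in 8 its log2 ratio stayed within the interval of the reported value. Without members that held at least 3 markers of another class it was −4.03, since 17 WT nuclei and 1 HIF-1α KO nucleus remained, and the epithelial markers behind this were detected in most HIF-1α KO members. The numbers of higher and lower genes, 92 and 72, became 21 and 20 without those members, 17 and 20 with every nucleus thinned to 1000 UMIs before selection, 19 and 26 with only the members thinned, 1547 and 903 with no minimum beyond 1 UMI in each library, and 10 and 7 at 100 UMIs. With only genes at or above their level in all filtered nuclei they were 51 and 62. The share of higher genes among those called, 56.1%, was 45.5% without mitochondrial and the 20 most abundant genes, 45.9% and 42.2% under the 2 thinnings and 45.1% with that level as a minimum. It was 49.7% with the log2 ratios centred on their median. Larger shares were 63.1% with no minimum beyond 1 UMI in each library, 59.8% at a marker share of 0.5% and 58.8% at 100 UMIs. Fewer genes reach 30 UMIs under thinning, 408 and 428 in place of 1791.

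With at least 1 gene of a list in place of 2, arterial genes were found in 100% of members in both libraries, capillary genes in 45.9% and 43.5% and venous genes in 57.4% and 52.2% of WT and HIF-1α KO members. Thinned to 1000 UMIs, arterial genes were found in 32.8% and 34.8%, capillary genes in 3.28% and 0% and venous genes in 19.7% and 8.70% of WT and HIF-1α KO members. Leaving out the deepest HIF-1α KO nucleus (99 and 84) and leaving out mitochondrial, goblet and absorptive list genes (86 and 67) were chosen after seeing the data. No paired analysis was possible because each genotype had 1 library from pooled animals.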

Other observations

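A few genes had opposite 2-fold ratios in the members and in the pooled other nuclei, whose classes had unequal shares in the libraries. Stard9, Fbxl7, Adgrl4, Cdh13, Pdgfd, Arhgap44, Col5a2 and Gm33206 were higher in the HIF-1α KO members and at least 2-fold lower in the other HIF-1α KO nuclei. The reverse was shown by 0 genes. Adgrl4 is a selection marker, so its ratios are a description and no result. Within smooth muscle nuclei of WT and HIF-1α KO, Cdh13 was at 187 and 69.1 CPM and Pdgfd at 183 and 78.0. Fbxl7 was at 442 and 595 CPM there, and Col5a2 at 450 and 485. For Gm33206 the ratio in the other nuclei rested on levels of 0.381 and 0.085 CPM, a handful of UMIs, and 28 of its 30 UMIs in the members lay in a single nucleus. Cdh13, which encodes T-cadherin, had 120 and 186 UMIs in the members with a log2 ratio of 1.26 (0.92 to 1.60), and −1.35 in the other nuclei. Fbxl7, an F-box gene that fibroblast nuclei also expressed at 706 and 1473 CPM, had 69 and 106 UMIs in the members, 43 of them in a single HIF-1α KO nucleus. Col5a2, a fibrillar collagen chain, had 23 UMIs in 8 WT and 49 in 4 HIF-1α KO members, 24 of them in a single nucleus. Fibroblast nuclei had it at 898 CPM in WT and 1129 in HIF-1α KO. The cause was not tested.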
